A study of Mus musculus with 2 samples.

Results

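Goblet cells are the mucus-making cells of the intestinal epithelium, and 10 of their genes were followed in sorted intestinal stem cells of fasted and fed mice. The genes were taken by name from the deposited count files, in which 45706 gene IDs are listed: Muc2, Fcgbp, Tff3, Zg16 and Spink4, whose products are secreted, Agr2, which acts in the folding of mucin, Sytl2, which belongs to the machinery of vesicle traffic, the transcription factor gene Foxa3, the chemokine gene Ccl9 and the tryptase gene Tpsg1. All 10 were found, and all 10 passed the filter on low counts, which left 12026 measured genes. The label of mucus genes holds for the secreted products and for Agr2, while Foxa3, Ccl9, Sytl2 and Tpsg1 are goblet cell markers that do not form part of the mucus.

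1 library came from fasted mice and 1 from mice fed standard chow ad libitum. Both were 4 months old and of the strain Lgr5-EGFP-IRES-creERT2, in which the stem cell gene Lgr5 carries a green fluorescent protein (GFP) reporter, and both libraries were made from GFP-high sorted cells. This allele is known to be expressed in only a part of the crypts. How long the fast lasted and how many mice were pooled are not known from the labels. The fasted library held 5020056 counts and the fed library 6985316 counts, so that 1 count was worth 0.199 counts per 1000000 counts (CPM) in the fasted and 0.143 CPM in the fed library. There was 1 library per group and so no replicate and no test. Ratios divide the scaled fasted count by the scaled fed count, with 95% intervals for counting error alone. A gene is called higher or lower where its ratio was at least 2-fold and the interval excluded a ratio of 1.

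A goblet cell fills its upper part with granules of the gel-forming mucin MUC2, which is assembled in the endoplasmic reticulum, coated with O-linked sugars in the Golgi apparatus and released as a hydrated gel over the epithelium. FCGBP, the trefoil peptide TFF3 and the lectin ZG16 leave the cell with it and become part of the mucus. The cells descend from the stem cells of the crypt through a secretory progenitor that depends on the transcription factor ATOH1, and SPDEF and FOXA factors act further along this path. In a bulk library a larger share of goblet cells and more RNA per cell cannot be told apart.

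Of the 10 goblet cell genes, 5 were higher in the fasted library and 0 were lower. The count of 5 of 10 stood beside 2.51% of all measured genes called higher and 1.91% called lower. The members were chosen with earlier results of these data known, so this count is a description. Zg16 was 3.10-fold, Tff3 3.001-fold, Fcgbp 2.57-fold, Ccl9 2.04-fold and Tpsg1 3.88-fold above the fed level. Tpsg1 passed the filter on low counts only through the fasted library. With a minimum of 5 CPM it dropped out, and 4 of 8 goblet cell genes were higher, beside 1.68% of the genes then measured. The median log2 ratio of the 10 genes was 0.79, against -0.02 for all measured genes, and all 10 ratios lay above 0, as did those of 47.9% of measured genes. A correction for exon length, which subtracts the running median log2 ratio of genes of like length, took Foxa3 to -0.05 and so turned its direction. The summed counts of the 10 genes made up 0.122% of the fasted and 0.0601% of the fed library, a log2 ratio of 1.05 (0.99 to 1.10). Fcgbp alone gave 46.3% of these counts in the fasted and 37.1% in the fed library, so the sum leans on this gene. Muc2, Spink4, Agr2, Sytl2 and Foxa3 stayed within 2-fold, so the structural mucin itself was not among the genes called.

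**Figure D1:**
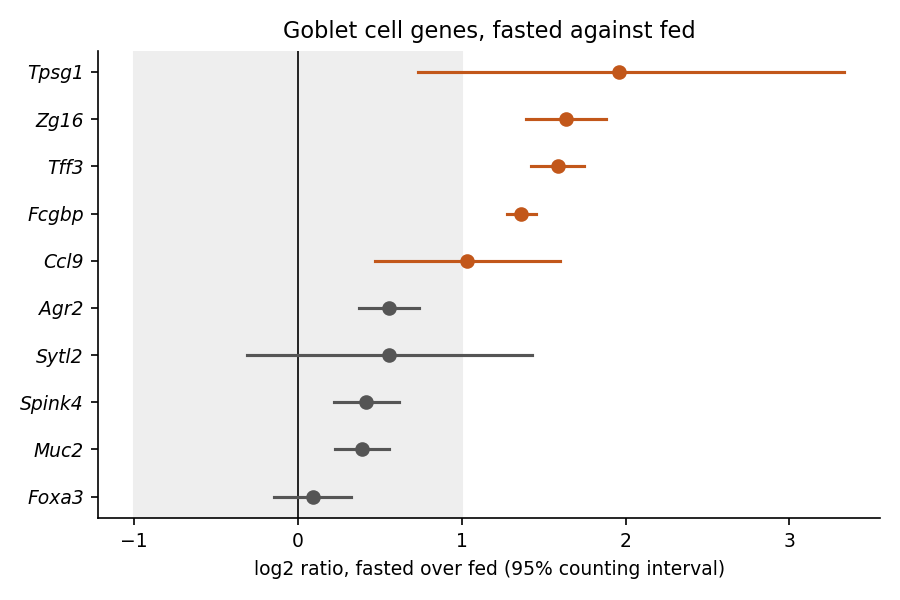
Log2 ratio of fasted over fed for each goblet cell gene (points) with its 95% counting interval (lines); the grey band marks ratios within 2-fold and orange marks genes called higher. Zg16, Tff3 and Fcgbp lie outside the band with their whole intervals, while Foxa3, at 0.09, lies near 0.

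Among the genes of secreted proteins, Tff3, Zg16 and Fcgbp were higher, while Muc2 and Spink4 stayed within 2-fold. Tff3 encodes a small trefoil peptide that aids repair of the epithelium, and it lies on chromosome 17 (31125306 to 31129646, minus strand, 3 exon blocks, GRCm38). It had 969 counts in the fasted library against 456 in the fed library, or 193 CPM fasted and 65.3 CPM fed, a log2 ratio of 1.59 (1.42 to 1.75). Zg16, a lectin that binds bacterial cell walls in the mucus (chromosome 7, 127050156 to 127087328, minus strand), had 444 counts in the fasted library against 202 in the fed library. Its log2 ratio of 1.63 (1.39 to 1.88) overlapped that of Tff3. No annotated exon of another gene overlapped the exons of either.

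Fcgbp encodes a large mucus protein that is tied to the MUC2 network (chromosome 7, 28071236 to 28120862, plus strand, 20 exon blocks). It had 2843 counts in the fasted library and 1560 in the fed library, the most of all 10 genes, and a log2 ratio of 1.36 (1.27 to 1.45). Its neighbour 9530053A07Rik, for which RefSeq gives FCGBP as a synonym, lies 8604 bases away and had 0 counts in both libraries, so no reads were assigned to that relative.

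Muc2, the gel-forming mucin itself (chromosome 7, 141690340 to 141754693, plus strand, 47 exon blocks), had 605 counts in the fasted library against 651 in the fed library, which is 121 CPM fasted and 93.2 CPM fed. After scaling the log2 ratio was 0.39 (0.23 to 0.55), a 1.31-fold difference below the threshold. Spink4, a gene of the Kazal family of protease inhibitors (chromosome 4, 40920052 to 40931395, plus strand), had 410 counts in the fasted library against 433 in the fed library and a log2 ratio of 0.42 (0.22 to 0.62), close to that of Muc2. Both intervals excluded 0 and both stayed under 2-fold.

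The upstream sequences of Fcgbp, which was called higher, of Ccl9, also called higher, and of Muc2, which was not, are set side by side because each holds the E-box CAGCTG, a sequence of the kind bound by basic helix-loop-helix factors. Each line gives the 250 bases before the RefSeq transcription start on GRCm38.p6, 5′ to 3′ on the gene's strand, with CAGCTG in capitals.
Fcgbp (chr7:28070986-28071235, plus strand): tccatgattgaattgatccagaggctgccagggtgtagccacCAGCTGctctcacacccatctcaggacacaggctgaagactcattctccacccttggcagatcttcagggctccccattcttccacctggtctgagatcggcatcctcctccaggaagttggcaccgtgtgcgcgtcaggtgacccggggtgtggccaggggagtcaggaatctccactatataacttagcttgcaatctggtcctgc
Ccl9 (chr11:83578637-83578886, minus strand): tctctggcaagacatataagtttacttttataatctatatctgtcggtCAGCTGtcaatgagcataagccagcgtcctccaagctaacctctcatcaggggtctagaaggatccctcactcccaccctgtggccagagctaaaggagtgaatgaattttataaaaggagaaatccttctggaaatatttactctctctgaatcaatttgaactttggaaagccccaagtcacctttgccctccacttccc
Muc2 (chr7:141690090-141690339, plus strand): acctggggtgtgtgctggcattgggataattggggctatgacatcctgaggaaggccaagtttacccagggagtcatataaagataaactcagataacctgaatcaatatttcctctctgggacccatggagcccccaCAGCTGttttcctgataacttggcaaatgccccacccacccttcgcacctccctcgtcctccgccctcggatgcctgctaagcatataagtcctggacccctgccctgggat
The E-box began 208 bases before the start of Fcgbp, 202 bases before that of Ccl9 and 112 bases before that of Muc2. RefSeq's promoter table held 6 of the 10 genes (Agr2, Ccl9, Fcgbp, Foxa3, Muc2 and Tpsg1), and the 3 printed, chosen after the matches were seen, were the ones with this E-box in windows of 250 bases before and 50 bases after the start, where 16.3% of 32851 such windows hold it. CAGCTG reads the same on both strands. Of 5 further sequences searched on both strands, TATAAA was present in Ccl9, Foxa3 and Muc2 (13.6% of windows) and CCCCACCC in Muc2 and Tpsg1 (9.99%), and the matches did not overlap those of another sequence. None of these windows held the forkhead sequence TGTTTAC, found in 3.65% of all windows, the E-box CAGATG, found in 17.2%, or the Ets sequence CCGGAT, found in 6.04%. A match marks letters only. The genes with this E-box had log2 ratios of 1.36 (Fcgbp), 1.03 (Ccl9) and 0.39 (Muc2), and a role of the E-box in them was not tested.

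The genes for folding, traffic and regulation mostly stayed within 2-fold. Agr2, a protein disulfide isomerase of the endoplasmic reticulum that MUC2 needs (chromosome 12, 35992907 to 36004087, plus strand), had 493 counts in the fasted library against 473 in the fed library and a log2 ratio of 0.56 (0.37 to 0.74), which came to 0.36 after a correction for exon length. Foxa3, a forkhead transcription factor gene (chromosome 7, 19013284 to 19023538, minus strand), had 261 counts in the fasted library against 346 in the fed library. Its log2 ratio of 0.09 (-0.15 to 0.33) was the lowest of the 10 and its interval included 0. Sytl2 encodes a synaptotagmin-like protein that binds RAB27 on secretory vesicles (chromosome 7, 90302252 to 90410719, plus strand), and had 25 counts in the fasted library against 24 in the fed library. At this depth its log2 ratio of 0.56 (-0.31 to 1.43) could not be told from 0 or from a 2-fold difference.

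Ccl9 and Tpsg1 were called higher from few counts. Ccl9, a CC chemokine gene (chromosome 11, 83572919 to 83578636, minus strand), had 68 counts in the fasted library against 47 in the fed library and a log2 ratio of 1.03 (0.47 to 1.60), just past the threshold. The correction for exon length brought it to 0.98 and ended the call. Its neighbour Ccl6, a related chemokine gene 9246 bases away, had 156 counts in the fasted library and 119 in the fed library, with a log2 ratio of 0.89 (0.53 to 1.24). Tpsg1, a membrane-anchored tryptase gene (chromosome 17, 25369273 to 25374442, plus strand), had 22 counts in the fasted library against 8 in the fed library and a log2 ratio of 1.96 (0.74 to 3.33). It reached the filter's sum of 20 counts only through the fasted library, a minimum of 5 CPM would remove it, and 158 bases of its exons overlap Cacna1h on the other strand, which had 2 counts in the fasted and 7 in the fed library.

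Tryptases and chemokines are also products of mast cells and other blood cells, and markers of those cells were read in the same libraries. Of 10 mast cell markers, 8 had 0 counts in both libraries, among them Cpa3, Mcpt1, Tpsab1 and Tpsb2, where 3 counts would be 0.598 CPM in the fasted and 0.429 CPM in the fed library. The other two were Kit (181 fasted and 235 fed counts) and Hdc, the histidine decarboxylase gene, which was higher with 28 fasted and 12 fed counts. Of 12 markers of other blood cells, 6 had 0 counts in both libraries, among them the macrophage genes Adgre1 and Csf1r, and the summed level was 2.39 CPM in the fasted and 4.72 CPM in the fed library. Cd68, a lysosomal gene of macrophages, was lower with 6 fasted and 25 fed counts. The part of blood cells in the ratios of Ccl9 and Tpsg1 was not tested.

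Levels between genes were compared per length, as CPM per kilobase of annotated exon (RPKM). Tff3 had the highest level of the 10 in both libraries, with 392 RPKM in the fasted and 132 in the fed library, and ranked 65 in the fasted and 216 in the fed library among 11992 measured genes with an exon length. Spink4 followed with 171 RPKM in the fasted and 130 in the fed library, so that Spink4 and Tff3 lay side by side in the fed library and apart in the fasted one. Agr2 had 76.1 RPKM fasted and 52.5 fed, Zg16 70.4 fasted and 23.0 fed, and Fcgbp 54.0 fasted and 21.3 fed. Foxa3 had 25.5 RPKM fasted and 24.3 fed, and Muc2 16.9 fasted and 13.1 fed. Ccl9, Tpsg1 and Sytl2 lay lowest, at 4.45, 3.16 and 0.357 RPKM in the fasted library against 2.21, 0.825 and 0.246 in the fed library. The exon length joins the exons of all transcripts, 13941 bases for Sytl2 against 477 for Spink4, and so understates genes with many alternative exons.

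**Figure D2:**
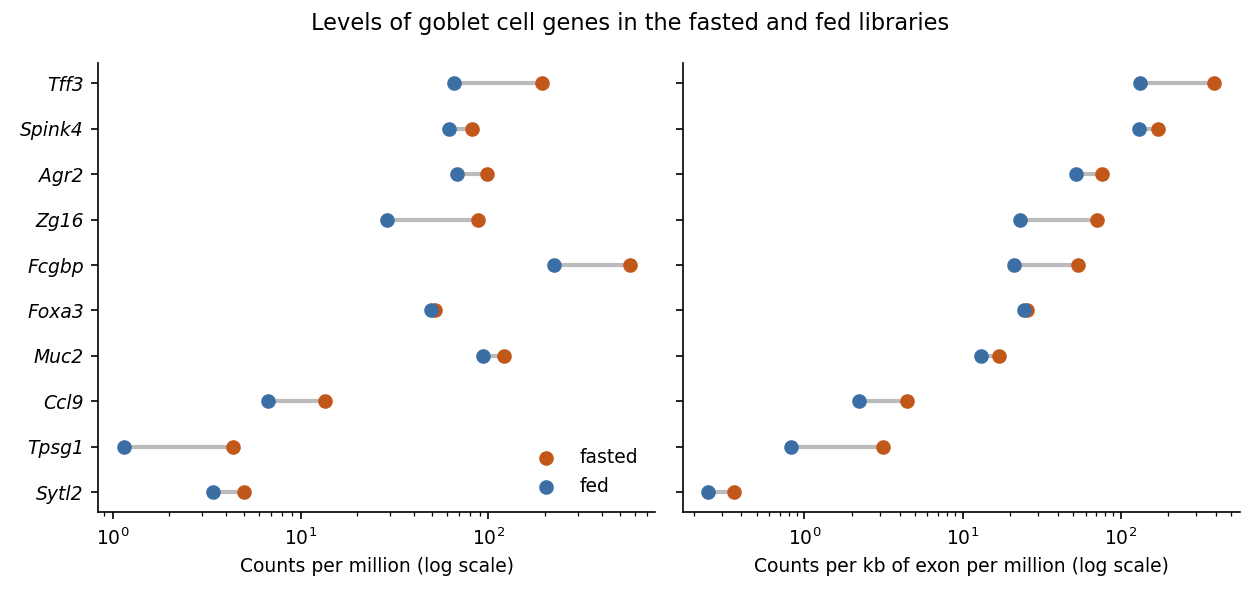
Level of each goblet cell gene in the fasted (orange) and fed (blue) library, in CPM (left) and in RPKM (right), both on log axes, with 1 library per point. Tff3, Zg16 and Fcgbp show wide gaps, and the points of Foxa3 nearly coincide.

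The order of the levels differed between the libraries. Zg16, at 23.0 RPKM, lay just under Foxa3 in the fed library and between Fcgbp and Agr2 in the fasted library. Among all ranked genes, 5 of the 10 lay in the top 10% of the fasted library (Tff3, Spink4, Agr2, Zg16 and Fcgbp) and 3 in the top 10% of the fed library (Tff3, Spink4 and Agr2). In the summed RPKM of the 10 genes, Tff3 took 48.1% in the fasted and 33.1% in the fed library, and Spink4 took 21.0% in the fasted and 32.5% in the fed library. For scale, Lgr5, the gene of the reporter, had 33.2 RPKM in the fasted and 47.2 in the fed library, and the abundant stem cell gene Olfm4 had 2788 in the fasted and 4852 in the fed library.

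Ratios of one goblet cell gene to another within a library need no scaling factor, and they varied from gene to gene. For each count of Muc2 there were 1.60 counts of Tff3 in the fasted and 0.700 in the fed library, a ratio of 2.29 (1.95 to 2.68). For Zg16 the ratio was 2.37 (1.93 to 2.90), for Fcgbp 1.96 (1.72 to 2.23), for Ccl9 1.56 (1.04 to 2.35) and for Tpsg1 2.96 (1.26 to 7.74). Spink4, at 1.02 (0.85 to 1.22), Agr2, at 1.12 (0.94 to 1.33), and Sytl2, at 1.12 (0.61 to 2.07), had intervals that included 1. Foxa3 was the gene below Muc2, at 0.81 (0.66 to 0.99). Of the 9 ratios to Muc2, 5 therefore lay above 1 with their interval, 1 below and 3 neither. Zg16 and Tff3 kept nearly the same proportion to each other, with 0.458 counts of Zg16 per count of Tff3 in the fasted and 0.443 in the fed library, a ratio of 1.03 (0.84 to 1.27). Fcgbp to Tff3 gave 0.86 (0.75 to 0.98). None of these ratios between genes was corrected for exon length. With that correction the log2 ratios of fasted over fed were 1.46 for Tff3 and 1.47 for Fcgbp. Those of Muc2, Agr2 and Ccl9 were 0.46, 0.36 and 0.98, so that Agr2 then lay below Muc2.

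**Figure D3:**
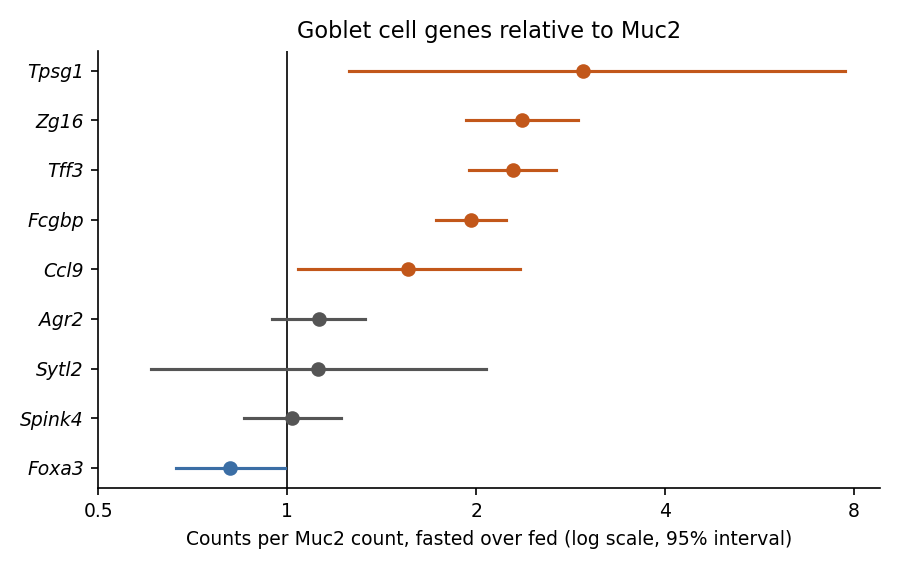
Counts of each goblet cell gene per count of Muc2, as the fasted over the fed library (points, log axis) with exact 95% intervals (lines); orange intervals lie above 1, blue below and grey ones include it. Tff3, Zg16 and Fcgbp lie near 2, whereas Spink4 and Agr2 lie near 1.

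Clca1, a protein of the mucus made by goblet cells, had 438 counts in the fasted library against 619 in the fed library and a log2 ratio of -0.0012 (-0.18 to 0.18). Muc2 set against Clca1 gave 1.31 (1.11 to 1.55) and Tff3 against Clca1 gave 3.003 (2.54 to 3.56). The other gel-forming mucin genes Muc5ac, Muc5b and Muc6, which lie within 100 kb of Muc2, had 0 counts in both libraries, and Tff2 and Tff1, the neighbours of Tff3, had 2 counts and 1 count in the fasted library and 0 in the fed library. Among 14 other secreted mucus proteins 5 were measured, and their median log2 ratio was -0.0012, which is the value of Clca1, itself among the 5. Itln1 and Ang4, also among the 5, stand in the list of Paneth cell markers as well. Of these 5, 1 passed as higher and 0 as lower, beside 2.51% higher and 1.91% lower among all measured genes. The one called was Dmbt1, a scavenger receptor protein that binds bacteria and that other epithelial cells also make, with 18702 fasted and 6670 fed counts and a log2 ratio of 1.99 (1.94 to 2.03).

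A wider list of goblet cell markers had a median above 0 that was smaller than that of the 10 genes. Among all measured genes 2.51% were called higher, 1.91% were called lower and 47.9% had a log2 ratio above 0. Outside the 10 genes 25 markers were measured. Among these 6 were higher, 21 had a positive ratio and 0 were lower, and the median log2 ratio was 0.39. The higher ones included Bace2, a protease gene, with 33 fasted and 18 fed counts and a log2 ratio of 1.37 (0.50 to 2.29), S100a6, a calcium-binding protein gene, with 23 fasted and 13 fed counts and 1.32 (0.28 to 2.42), and Ern2. Ern2 encodes the epithelial form of the stress sensor IRE1 and had 74 fasted and 51 fed counts, with a log2 ratio of 1.03 (0.50 to 1.58) that came to 0.95 after correction for exon length, which ended the call. The rest, chosen after their values were seen, were Guca2a (151 fasted and 103 fed counts), Lrrc26 (30 fasted and 20 fed) and Bcas1 (20 fasted and 12 fed). Their log2 ratios were 1.05 (0.68 to 1.43) for Guca2a, 1.08 (0.22 to 1.98) for Lrrc26 and 1.23 (0.13 to 2.40) for Bcas1. Guca2a and Lrrc26 thus lay just past the threshold. Values after the correction for exon length are not given for these genes. Many of the 25 markers, such as Clca1, Spdef and Ern2, also stand in the lists of mucus proteins, mucin assembly or regulators. These lists are therefore not separate from it.

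The lists for mucin assembly are given beside 2.51% called higher and 1.91% called lower among all measured genes. The 27 measured genes of mucin O-glycosylation had a median log2 ratio of 0.03, with 14 above 0, 0 called higher and 1 called lower. The lower one was the sialyltransferase gene St3gal1, with 10 fasted and 41 fed counts and a log2 ratio of -1.54 (-2.70 to -0.52). B3gnt6, which makes the core 3 sugar of colonic mucin, had 0 counts in both libraries. The 32 genes of protein folding in the endoplasmic reticulum had a median of 0.20, with Ern2, whose call ended after the length correction, the 1 called higher and 0 called lower, and Xbp1, the transcription factor activated by IRE1, had 641 fasted and 795 fed counts and 0.19 (0.03 to 0.34). None (0) of 14 granule exocytosis genes was called in either direction, and their median was 0.01. The same held for 0 of 5 transmembrane mucins, whose median was -0.32, with Muc13, the most abundant of them in counts, at -0.32 (-0.37 to -0.26).

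Among 12 measured regulators of the secretory lineage the median log2 ratio was 0.13, and 1 was called higher and 0 lower, beside 2.51% higher and 1.91% lower among all measured genes. Atoh1, the gene that opens the secretory path, had 70 fasted and 56 fed counts and 0.82 (0.29 to 1.35). Spdef, which drives goblet cell maturation, had 44 fasted and 53 fed counts and 0.23 (-0.38 to 0.83), and Klf4 had 117 fasted and 148 fed counts and 0.16 (-0.20 to 0.52). Creb3l1, a transcription factor gene of secretory cells, had 98 fasted and 123 fed counts and 0.17 (-0.23 to 0.56). The gene called was Bhlha15, which encodes MIST1, a factor of secretory cell maturation, with 40 fasted and 22 fed counts and 1.36 (0.57 to 2.18). Among close relatives of the 10 genes, 1 of 11 measured was higher and 1 lower. These were Spink1, a trypsin inhibitor gene, with 68 fasted and 30 fed counts and 1.68 (1.04 to 2.35), and the chemokine gene Ccl20, with 10 fasted and 30 fed counts and -1.09 (-2.28 to -0.02), a call that ended under upper-quartile scaling, at -1.06.

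**Figure D4:**
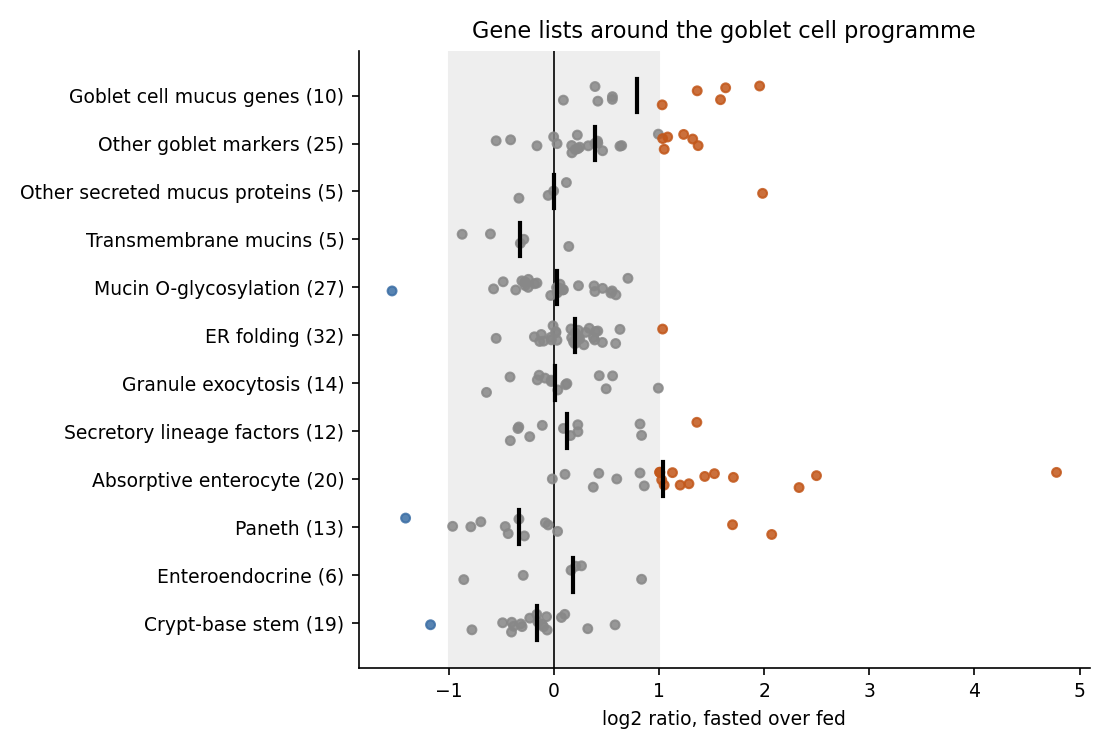
Log2 ratios of fasted over fed for the measured members of each list (points; orange higher, blue lower, grey neither), with the list median as a black bar and the number measured in brackets; the grey band marks ratios within 2-fold. The goblet cell genes have a median of 0.79 and absorptive enterocyte markers 1.04, while mucin O-glycosylation genes centre near 0.

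Markers of other cell types of the crypt and villus are given beside 2.51% called higher and 1.91% called lower among all measured genes. Among 20 markers of absorptive enterocytes 13 were called higher, the median was 1.04, and their summed level was 6980 CPM in the fasted and 3607 CPM in the fed library, beside 1223 CPM fasted and 601 CPM fed for the 10 goblet cell genes. The widest ratios among them were those of Fabp1, a fatty acid binding protein gene, at 4.78, and the peptide transporter gene Slc15a1, at 2.50. Some of the 13 lay just past the 2-fold threshold, the lowest at a log2 ratio of 1.01. The median of 13 Paneth cell markers was -0.33, with 2 called higher and 1 lower, where Mmp7 had 2.07, Mptx1 1.70 and Defa26 -1.41. Of 6 enteroendocrine markers 0 were called, at a median of 0.19. The median of 19 crypt-base stem cell markers was -0.16, with 0 called higher and 1, the urea transporter gene Slc14a1 at -1.17, called lower. Lgr5 had -0.49 (-0.57 to -0.40) and Olfm4 -0.78 (-0.79 to -0.76). The part of these cell types in the ratios of the goblet cell genes was not tested.

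Genes that lie next to the 10 in the genome were read as well. Of 30 measured genes within 100 kb 0 were higher and 0 were lower, beside 2.51% called higher and 1.91% called lower among all measured genes. Their median log2 ratio was 0.02. No neighbour of Tff3 passed the filter on low counts, so none of the 30 lies near it. Agr3, the close relative of Agr2 at 43171 bases from it, had 161 fasted and 203 fed counts and 0.16 (-0.14 to 0.47).

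By the size of the ratio, Tpsg1 had rank 69, Zg16 rank 115, Tff3 rank 124, Fcgbp rank 168 and Ccl9 rank 319 among the 12026 measured genes, and Foxa3 had rank 4329. The high place of Tpsg1 rests on 30 counts in all, whereas Fcgbp, with 4403 counts, has an interval that spans 2.42-fold to 2.74-fold. Neither interval covers variation between mice, which these libraries do not measure.

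**Figure D5:**
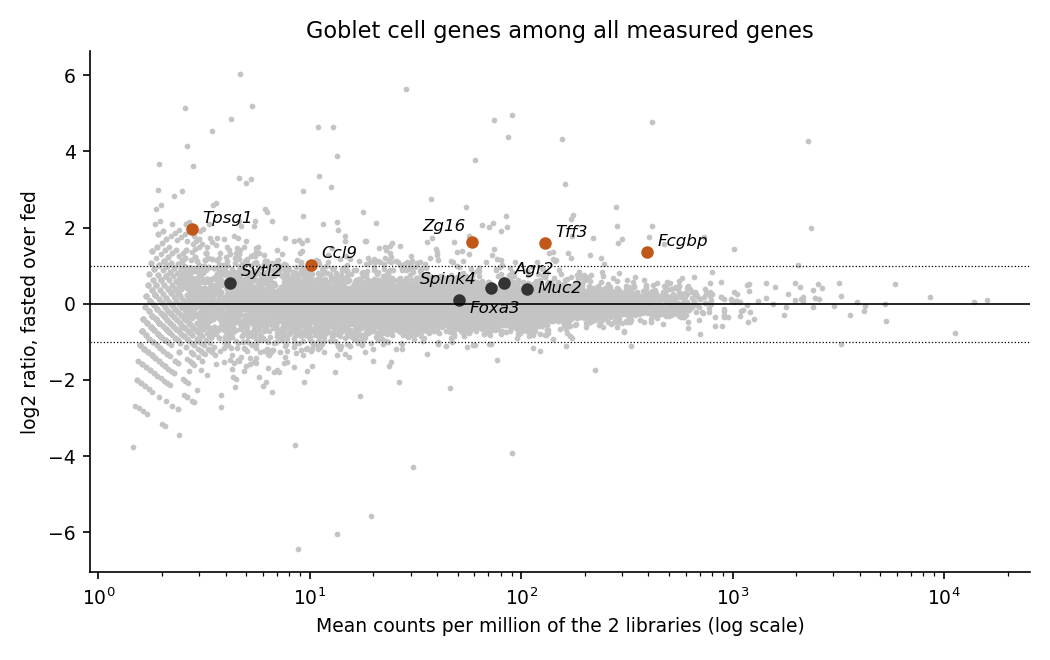
Log2 ratio of fasted over fed against the mean level in CPM (log axis) for the measured genes with counts in both libraries (grey) and the goblet cell genes (orange, called higher; black, not called); dotted lines mark 2-fold. Fcgbp, Tff3 and Zg16 stand above the bulk of genes of like level, and Muc2, Spink4, Agr2 and Foxa3 lie within 2-fold.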

How the data were processed

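RNA was sequenced from 1 fasted and 1 fed library. The deposited counts per Ensembl gene are whole numbers that the authors did not normalise. FastQC, STAR, HTSeq and DESeq and the builds GRCm38 and mm10 are named per the submitters' processing notes, without versions or roles. No label or header names the annotation or strand setting, and sense and antisense reads cannot be told apart. A deposited table of normalised values, a signal per the file headers, matches the counts divided by 1 factor per library (0.842 fasted, 1.19 fed). For 99.999% of the deposited values the divided count lay within 0.0051. With 1 library per group no count test could be run on them.

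Symbols, coordinates and merged exon lengths came from GENCODE M21 (GRCm38), which named 45143 of 45706 IDs, and promoter windows from RefSeq (GRCm38.p6). Counts were divided by median-of-ratios factors. Measured genes had a mean of at least 1 CPM and at least 20 summed counts. Intervals are 95% Clopper-Pearson intervals of the fasted share of a gene's reads, and conditional exact intervals for ratios to Muc2. They and the floor of 3 counts cover counting error only. Calls needed 2-fold and an interval without 1. Python 3.11.15, scipy 1.17.1 and edgeR 4.0.16 (for TMM and upper-quartile factors) were used.

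The members and lists were chosen with earlier results of these data known. Named besides the 10 genes are up to 2 called members of each list in each direction, with the largest ratios, and Clca1, Spdef, Atoh1, Klf4, Ern2, Xbp1, Creb3l1, B3gnt6, Muc13, Lgr5 and Olfm4. Of the listed symbols, Ero1a, Ero1b, Fcgbpl1, Muc16, Muc17, Spink3, Troy and Zg16b were not matched to a gene ID under these names. Some of them may be other names of genes that were read under another symbol.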

Additional observations from a re-analysis of the deposited data

How the results depend on the processing

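No paired analysis was possible because each group has 1 library. TMM factors, total counts and upper-quartile factors each left the same 5 goblet cell genes called higher and 0 lower, with a median log2 ratio of 0.77 to 0.82. A threshold of 1.5-fold left the same calls. The deposited normalised values rest on the same factors as the main setting, so they repeat it. Leaving out the low-count filter could not change a member's call either, because all members pass that filter. A threshold of 3-fold left 3 (Tff3, Zg16 and Tpsg1), with Tff3 just past it at 3.001-fold. With total counts the log2 ratio of Tff3 was 1.56, which is below 3-fold. After correction for exon length Tff3, at 1.46, and Zg16, at 1.41, were both below 3-fold. A minimum of 5 CPM left 8 genes, of which 4 were higher, without Tpsg1. A correction for exon length, added for these counts after the data were seen, left 4, without Ccl9. The summed counts of the members gave 1.05 instead of the median of 0.79. Over all measured genes, the count was 302 higher and 230 lower, while a minimum of 5 CPM gave 176 higher and 111 lower, 1.5-fold gave 614 higher and 607 lower, and 3-fold gave 124 higher and 88 lower, as fewer genes or another threshold must. Depth limits Sytl2 and Tpsg1, with 49 and 30 counts in all, and differences between mice are not covered by any value here.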

Other observations

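Some goblet cell genes fell below the filter on low counts and belong to no count above. Rep15, a gene of vesicle traffic in goblet cells that was chosen after its values were seen, had 16 counts in the fasted library and 3 in the fed library, a log2 ratio of 2.91 (1.11 to 5.33). Retnlb, which encodes the goblet cell protein RELM-beta, had 4 counts in the fasted and 3 in the fed library, and its log2 ratio of 0.91 (-1.65 to 3.68) could not be told from 0 at this depth. Mucus-related genes that Paneth cells also make had ratios under 2-fold: the lectin gene Itln1 had 878 fasted and 1560 fed counts and -0.33 (-0.45 to -0.21), and Ang4, an antimicrobial ribonuclease gene, had 348 fasted and 510 fed counts and -0.05 (-0.25 to 0.15). Nlrp6, an inflammasome gene linked to goblet cell secretion in mice, had 2785 fasted and 4165 fed counts and -0.08 (-0.15 to -0.01).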
